A study of Homo sapiens with 6 samples.

Results

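The unfolded protein response and the integrated stress response were followed through 40 genes, matched by symbol in a count table of 23345 genes. RNA came from A375, an established human melanoma cell line, after infection with lentivirus. The BMI1 group (3 libraries) received murine BMI1, which encodes a core protein of the Polycomb complex that ubiquitinates histone H2A. The GFP group (3 libraries) received GFP, and both groups were infected. No stress-inducing drug is named in the labels, which do not say whether the cells were pools or clones. Of the 40 genes, 20 belong to an ER folding branch and 20 to an ATF4 branch. All 40 had a row in the table, and 39 passed the filter on low counts. DERL3, a derlin of the ER membrane, did not, with 3 counts over the BMI1 libraries and 3 over the GFP libraries.

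When unfolded protein builds up in the endoplasmic reticulum (ER), the membrane sensors IRE1 (gene ERN1), PERK (gene EIF2AK3) and ATF6 respond. IRE1 splices XBP1 mRNA, ATF6 is cut in the Golgi to release a transcription factor, and both induce chaperones, folding enzymes and ER-associated degradation. PERK and its sister kinases, GCN2 (gene EIF2AK4) among them, phosphorylate eIF2alpha, which lowers general translation and raises translation of ATF4. ATF4 then induces CHOP (gene DDIT3), amino acid enzymes and the phosphatase subunit GADD34 (gene PPP1R15A). Counts per gene give total mRNA, and show neither XBP1 splicing, ATF6 cleavage, phosphorylation nor translation. In bulk RNA, fewer cells expressing a gene and less RNA per cell cannot be told apart.

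The response elements upstream of these genes are shown first, because they are the elements through which the factors of each branch are known to act. RefSeq (GRCh38.p14) gave at least 1 promoter for 35 of the 40 genes, and the 250 bases before each transcription start were searched on both strands. Some genes have more than 1 start, and a gene was counted if any of its windows held the element. The ER stress element, ERSE, was read as CCAAT and CCACG with 9 bases of any kind between them. Its shorter form, ERSE-II, was read as ATTGG and CCACG with 1 base between them. ERSE was found in 26 of 35116 windows (0.074%) and ERSE-II in 18 (0.0513%). By gene the shares were 0.0916% and 0.0659% of 27305 genes. Among the members, HSPA5, HSP90B1, PDIA6, CRELD2 and XBP1 held ERSE, and HYOU1, SDF2L1 and HERPUD1 held ERSE-II. The sequences below run 5′ to 3′ on the strand of the gene, with the fixed bases of each element in capitals. In some the element stands on the opposite strand, so that its reverse complement is capitalised. In HYOU1 the capitals also mark the core of the unfolded protein response element, TGACGTGG, which overlaps one ERSE-II and was found in 215 windows (0.612%). In HERPUD1 they also mark a C/EBP-ATF element, TGATGNAAN, on the opposite strand.
HSPA5: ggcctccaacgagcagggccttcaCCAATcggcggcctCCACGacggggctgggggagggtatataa
HSP90B1: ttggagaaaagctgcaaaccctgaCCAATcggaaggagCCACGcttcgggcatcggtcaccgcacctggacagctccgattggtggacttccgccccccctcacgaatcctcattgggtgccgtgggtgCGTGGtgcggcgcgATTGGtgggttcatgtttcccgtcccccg
PDIA6: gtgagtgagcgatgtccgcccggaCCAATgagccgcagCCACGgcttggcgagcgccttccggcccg
CRELD2: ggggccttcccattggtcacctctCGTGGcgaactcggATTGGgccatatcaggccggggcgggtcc
XBP1: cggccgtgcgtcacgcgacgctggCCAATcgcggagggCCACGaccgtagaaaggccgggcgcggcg
HYOU1: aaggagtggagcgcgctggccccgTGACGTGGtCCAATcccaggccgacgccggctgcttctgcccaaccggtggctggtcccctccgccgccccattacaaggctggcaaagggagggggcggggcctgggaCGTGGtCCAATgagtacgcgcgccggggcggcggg
SDF2L1: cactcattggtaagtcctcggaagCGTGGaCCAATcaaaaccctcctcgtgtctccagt
HERPUD1: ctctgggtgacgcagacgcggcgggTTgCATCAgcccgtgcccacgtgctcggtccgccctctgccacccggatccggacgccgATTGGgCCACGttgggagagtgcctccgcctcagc

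These stretches lie at chr9:125241367-125241433 (minus strand) for HSPA5, chr12:103930192-103930363 (plus strand) for HSP90B1, chr2:10812829-10812895 (minus strand) for PDIA6 and chr22:49918530-49918596 (plus strand) for CRELD2. They lie at chr22:28800579-28800645 (minus strand) for XBP1, chr11:119057250-119057417 (minus strand) for HYOU1, chr22:21642090-21642148 (plus strand) for SDF2L1 and chr16:56931941-56932059 (plus strand) for HERPUD1. HSP90B1 and HYOU1 each hold their element at more than one place. A match shows that these letters stand in the window, not that a factor binds there.

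For the ATF4 branch the C/EBP-ATF element was read as TGATGNAAN, where N is any base, and the cyclic AMP response element as TGACGTCA. The C/EBP-ATF element is a site that ATF4 binds with C/EBP partners. It is short and was found in 1100 of 35116 windows (3.13%), and the cyclic AMP response element in 578 (1.65%). By gene the shares were 3.87% and 2.03%. ASNS, CHAC1, ATF3, PPP1R15B and HERPUD1 held the C/EBP-ATF element, and PPP1R15A held the cyclic AMP response element. Fixed bases are again in capitals.
ASNS: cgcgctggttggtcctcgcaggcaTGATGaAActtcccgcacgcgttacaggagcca
CHAC1: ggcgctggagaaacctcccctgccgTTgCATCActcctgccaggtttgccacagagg
ATF3: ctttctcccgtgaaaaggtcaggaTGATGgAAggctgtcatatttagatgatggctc
PPP1R15B: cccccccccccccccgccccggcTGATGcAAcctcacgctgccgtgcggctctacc
PPP1R15A: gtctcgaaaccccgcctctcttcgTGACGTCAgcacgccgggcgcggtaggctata

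These stretches lie at chr7:97872444-97872500 (minus strand) for ASNS, chr15:40953237-40953293 (plus strand) for CHAC1, chr1:212565192-212565248 (plus strand) for ATF3, chr1:204412012-204412067 (minus strand) for PPP1R15B and chr19:48872339-48872394 (plus strand) for PPP1R15A. Genes with the C/EBP-ATF element did not all give the same result. ATF3 fell, as given below, while ASNS, CHAC1, PPP1R15B and HERPUD1 did not pass the test. PPP1R15A, which held the cyclic AMP response element instead, also fell.

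Library totals lay between 20221432 and 30388937 estimated counts, and 15079 genes were tested. The BMI1 gene stood at 518, 522 and 506 CPM in BMI1 libraries, against 81.5, 92.7 and 94.03 CPM in GFP libraries, where CPM are library-size-normalised counts scaled by TMM. Its row may combine endogenous transcript with any transgene reads the aligner placed there. The lineage factor SOX10 averaged 632 ± 41.7 CPM in BMI1 cells and 647 ± 77.5 CPM in GFP cells (SD, n = 3 each), while the pigment genes PMEL, TYR and DCT stayed under 1 CPM on average. GFP replicate 1 lay apart on the second principal component (12.2% of the variance), at 25.96, with GFP replicates 2 and 3 at -12.4 and -12.2. The labels do not say that replicates were separate cultures, so the tests cover the spread between these samples alone, and that spread may be technical.

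Setting BMI1 cells against GFP cells asks how the stress response genes stood in melanoma cells given extra BMI1. In the ER folding branch, 10 of 19 tested genes rose and 0 fell, with a median log2 fold change of 0.15. In the ATF4 branch, 2 of 20 rose and 4 fell, with a median of 0.00077. Over all tested genes 26.4% passed, 17.1% as rises and 9.32% as falls, and the median was -0.012. The 0 falls by edgeR in the ER folding branch were 0 at an unadjusted p under 0.05 too, and 0 by DESeq2 and 0 by limma-voom. Over all 15079 tested genes 3249 rose and 2462 fell at that unadjusted p. All BMI1 libraries lay above all GFP libraries for 13 ER folding genes and below them for 0; in the ATF4 branch this was so for 4 and 6 genes. Of all tested genes 40.1% did not overlap, 22.7% above and 17.4% below. The difference between the branches was not tested.

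The same counts were taken with other tools and filters and without each library. With DESeq2's Wald test 9 ER folding genes rose and 0 fell, and 2 ATF4 branch genes rose and 4 fell, beside 15.1% and 8.85% of all tested genes. The counts in both branches were those of the edgeR fit with limma-voom (17.4% and 9.27% of all tested genes), DESeq2 size factors (16.7% and 10.1%) and upper-quartile scaling (17.6% and 8.65%). So they were with no filter on low counts (13.1% and 7.76%), a filter at 1 CPM (18.3% and 9.1%) and the replicate number as a block (17.1% and 9.34%). Without BMI1 replicate 1, 6 ER folding genes rose and 0 fell, and 1 ATF4 branch gene rose and 4 fell, beside 13.6% and 4.76% of all tested genes. Without BMI1 replicate 2, 8 ER folding genes rose and 0 fell, and 2 ATF4 branch genes rose and 4 fell, beside 15.9% and 8.53% of all tested genes. Leaving out BMI1 replicate 3, 5 ER folding genes rose and 0 fell, and 2 ATF4 branch genes rose and 4 fell, beside 13.5% and 4.7% of all tested genes. Without GFP replicate 1, 10 ER folding genes rose and 0 fell, and 4 ATF4 branch genes rose and 5 fell, beside 20.9% and 16% of all tested genes. Leaving out GFP replicate 2, 6 ER folding genes rose and 0 fell, and 1 ATF4 branch gene rose and 4 fell, beside 13.5% and 5.06% of all tested genes. Leaving out GFP replicate 3, 8 ER folding genes rose and 0 fell, and 2 ATF4 branch genes rose and 4 fell, beside 14.6% and 5.83% of all tested genes.

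**Figure D1:**
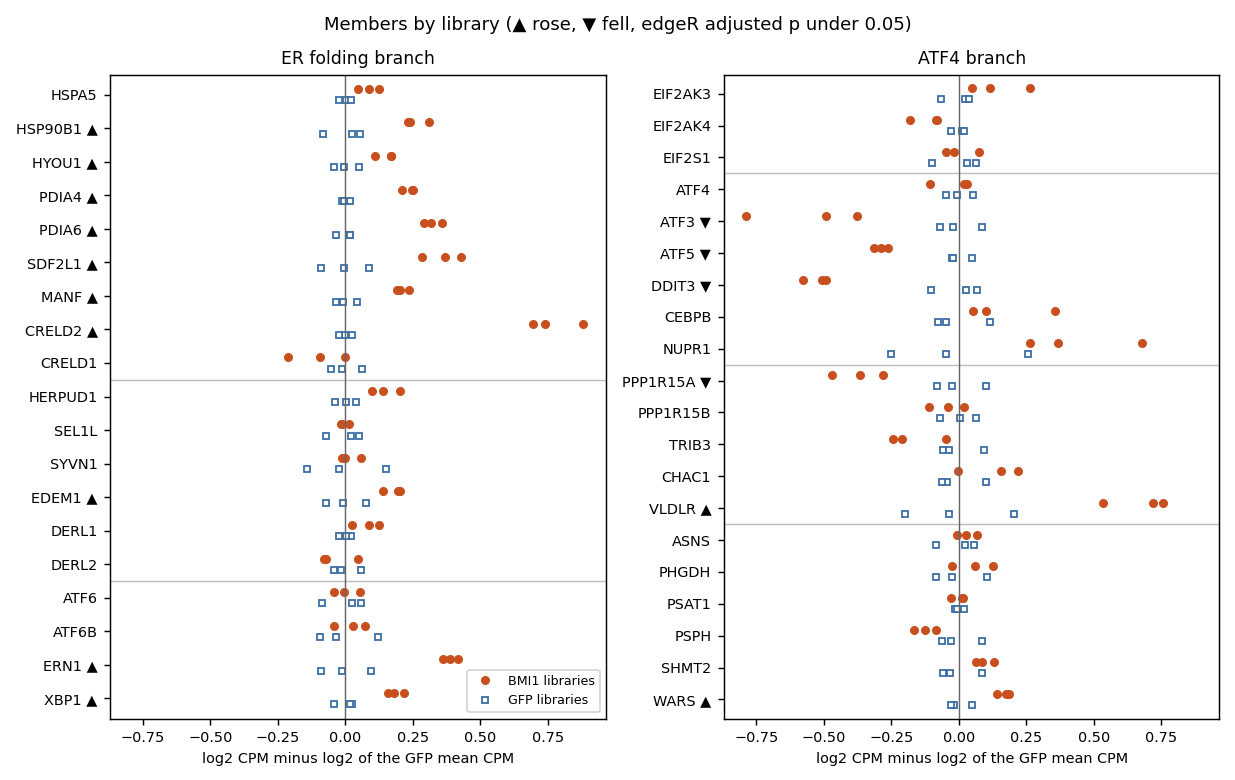
Level of each tested gene in each library, as log2 CPM minus the log2 of the GFP mean CPM, for the ER folding branch (left) and the ATF4 branch (right). Filled circles are the 3 BMI1 libraries, open squares the 3 GFP libraries, grey lines part the roles, and triangles mark genes that passed the test; most ER chaperones sit right of 0, and ATF3, ATF5, DDIT3 and PPP1R15A sit left.

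Most tested chaperones, folding enzymes and related genes of the ER rose, many of them by small amounts. Of 9 tested, 7 rose and 0 fell, beside 17.1% and 9.32% of all tested genes, and their median log2 fold change was 0.23. Their summed level was 3694, 3785 and 3661 CPM in BMI1 libraries, against 3123, 3246 and 3222 CPM in GFP libraries. The lowest BMI1 sum stood above the highest GFP sum. This also held for ER-associated degradation (lowest BMI1 445.3 CPM, highest GFP 442.6 CPM) and for the sensors with XBP1 (247.5 and 239.2 CPM). It held for the amino acid enzymes of the ATF4 branch too (1284 and 1260 CPM). The feedback and effector genes of that branch summed lower in BMI1 libraries (highest BMI1 293.3 CPM, lowest GFP 303.6 CPM). Outside the chaperones, each of these non-overlapping sums depended on a single gene: EDEM1, XBP1, WARS or PPP1R15A. With that gene left out, the sums of its role overlapped between groups. HSP90B1, which encodes GRP94, the HSP90 chaperone of the ER, had 1469.6, 1543 and 1461 CPM in BMI1 libraries, against 1175, 1292 and 1265 CPM in GFP libraries. The groups did not overlap, and HSP90B1 rose 1.199-fold (log2 0.26, SE 0.043; adjusted p = 0.000662 by edgeR). PDIA6, a protein disulphide isomerase, had 518, 533 and 508 CPM in BMI1 libraries, against 406, 420.2 and 420.1 CPM in GFP libraries. It rose 1.25-fold (log2 0.32, SE 0.039; adjusted p = 5.29e-05 by edgeR), again without overlap. PDIA4, another disulphide isomerase, averaged 314 ± 4.98 CPM in BMI1 cells and 267 ± 2.996 CPM in GFP cells (SD, n = 3 each) and rose by 0.23 on the log2 scale (adjusted p = 0.000675 by edgeR).

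HSPA5, which encodes BiP, the main HSP70 chaperone of the ER and a usual marker of the response, did not pass the test. Its level was 896, 920.1 and 872 CPM in BMI1 libraries, against 831, 847 and 857 CPM in GFP libraries. The BMI1 libraries lay just above the GFP libraries (log2 0.085, SE 0.037; adjusted p = 0.116 by edgeR). Over the other settings the log2 fold change of HSPA5 ran from 0.067 to 0.11 and its adjusted p from 0.00305, after correction for GC content, to 0.254 by the tools run. PDIA6 counts divided by HSPA5 counts of the same library were 0.578, 0.579 and 0.583 in BMI1 libraries, against 0.488, 0.496 and 0.490 in GFP libraries. This ratio is free of library scaling and did not overlap between groups. An exact two-sided permutation test gave p = 0.1, the smallest that 3 against 3 libraries allow, and the pair was chosen after its values were seen.

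CRELD2, an ER-resident and secreted protein induced by ER stress, had the largest log2 rise of the 39 tested genes with all 6 libraries. Without BMI1 replicate 3 or GFP replicate 3 VLDLR stood above it, at 0.73 and 0.79 against 0.72 and 0.76. CRELD2 stood at 42.7, 41.5 and 47.2 CPM in BMI1 libraries, against 26.1, 25.6 and 25.2 CPM in GFP libraries. The groups were well apart, with a 1.71-fold rise (log2 0.78, SE 0.061; adjusted p = 1.25e-06 by edgeR). CRELD1, its membrane-anchored relative with roles in heart development, averaged 17.3 ± 1.27 CPM in BMI1 cells and 18.6 ± 0.742 CPM in GFP cells (SD, n = 3 each) and did not pass (log2 -0.095; adjusted p = 0.366 by edgeR). After GC correction CRELD1 passed as a fall (log2 -0.16; adjusted p = 0.0367 by edgeR). CRELD2 counts divided by CRELD1 counts were 2.30, 2.59 and 2.71 in BMI1 libraries, against 1.35, 1.39 and 1.41 in GFP libraries, a pair chosen after its values were seen.

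Other lumenal genes also rose. SDF2L1, a partner of ER HSP40 co-chaperones, had 18.3, 20.2 and 19.4 CPM in BMI1 libraries, against 15.96, 14.1 and 14.98 CPM in GFP libraries. It rose 1.29-fold (log2 0.36, SE 0.072; adjusted p = 0.00243 by edgeR), and after GC correction by 0.21 on the log2 scale. MANF, a secreted stress-induced factor that binds BiP, averaged 114 ± 1.89 CPM in BMI1 cells and 98.5 ± 2.64 CPM in GFP cells (SD, n = 3 each; log2 0.21; adjusted p = 0.00739 by edgeR). HYOU1, a large HSP70-type exchange factor of BiP, averaged 298 ± 6.897 CPM in BMI1 cells and 269 ± 8.75 CPM in GFP cells (SD, n = 3 each; log2 0.15; adjusted p = 0.0211 by edgeR). By edgeR the MANF call was lost without BMI1 replicate 3 (0.0511), adjusted p in brackets. Likewise the HYOU1 call was lost without BMI1 replicate 1 (0.108), BMI1 replicate 3 (0.0879), GFP replicate 2 (0.0949) or GFP replicate 3 (0.0977).

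**Figure D2:**
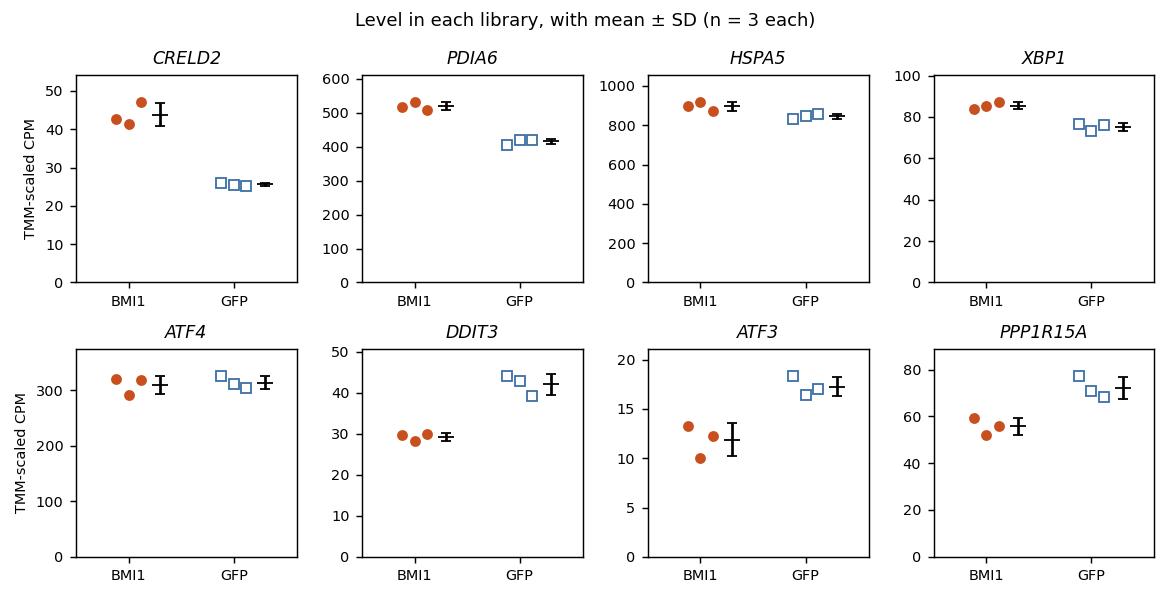
TMM-scaled CPM of 8 genes in each library, BMI1 left and GFP right in each panel, with mean ± SD beside the points (n = 3 each; axes start at 0). CRELD2, PDIA6 and XBP1 were higher in BMI1 libraries, HSPA5 differed little, ATF4 overlapped, and DDIT3, ATF3 and PPP1R15A were lower.

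Genes of ER-associated degradation, which returns misfolded protein to the cytosol for the proteasome, mostly did not pass. Of 7 members 6 were tested, 1 rose and 0 fell, with a median log2 fold change of 0.047. The share rising, 16.7%, was near the 17.1% of all tested genes, of which 9.32% fell. EDEM1, which sorts misfolded glycoproteins, was the one that rose, with 146, 147 and 141 CPM in BMI1 libraries, against 122, 127 and 135 CPM in GFP libraries. Its groups did not overlap (log2 0.18, SE 0.052; adjusted p = 0.023 by edgeR). By edgeR the EDEM1 call was lost without BMI1 replicate 1 (0.117), BMI1 replicate 2 (0.077), BMI1 replicate 3 (0.0539) or GFP replicate 2 (0.105), adjusted p in brackets.

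HERPUD1, a stress-induced scaffold of the degradation complex, had 58.97, 61.6 and 57.4 CPM in BMI1 libraries, against 52.04, 53.6 and 54.9 CPM in GFP libraries. The libraries did not overlap, but the test was not passed (log2 0.15; adjusted p = 0.0768 by edgeR); after GC correction the adjusted p was 0.00953 by edgeR. SYVN1, which encodes the ligase HRD1, and its partner SEL1L overlapped between groups, with log2 fold changes of 0.016 and -0.0056 (adjusted p = 0.898 and 0.956 by edgeR). The derlins DERL1 and DERL2 had 0.079 and -0.035 on the same scale. DERL1 passed after GC correction only (log2 0.13; adjusted p = 0.0387 by edgeR).

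Among the sensors ERN1 rose, as did the factor gene XBP1, while ATF6 and its paralogue ATF6B did not pass. ERN1 was scarce, at 6.38, 6.25 and 6.15 CPM in BMI1 libraries, against 4.74, 4.49 and 5.104 CPM in GFP libraries, from 420 and 366 counts in all. Its libraries did not overlap (log2 0.39, SE 0.11; adjusted p = 0.0219 by edgeR). XBP1, whose spliced mRNA encodes the active factor, had 83.9, 85.3 and 87.4 CPM in BMI1 libraries, against 76.6, 73.1 and 76.1 CPM in GFP libraries. It rose 1.14-fold (log2 0.18, SE 0.054; adjusted p = 0.0233 by edgeR), without overlap. ATF6 averaged 108 ± 3.65 CPM in BMI1 cells and 108 ± 5.55 CPM in GFP cells (SD, n = 3 each) and ATF6B 49.1 ± 1.95 CPM in BMI1 cells and 48.5 ± 3.76 CPM in GFP cells (SD, n = 3 each). Their log2 fold changes of 0.00091 and 0.023 changed sign with the setting.

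ERN1 was not called by DESeq2 (adjusted p = 0.0762), nor by edgeR without BMI1 replicate 1 (0.0755), BMI1 replicate 3 (0.0592) or GFP replicate 2 (0.0913). XBP1 was not called by edgeR without BMI1 replicate 1 (0.0718), BMI1 replicate 2 (0.0546), BMI1 replicate 3 (0.106), GFP replicate 2 (0.124) or GFP replicate 3 (0.0519), adjusted p in brackets. Over the 14 other settings the log2 fold change ran from 0.34 to 0.44 for ERN1 and from 0.16 to 0.25 for XBP1.

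**Figure D3:**
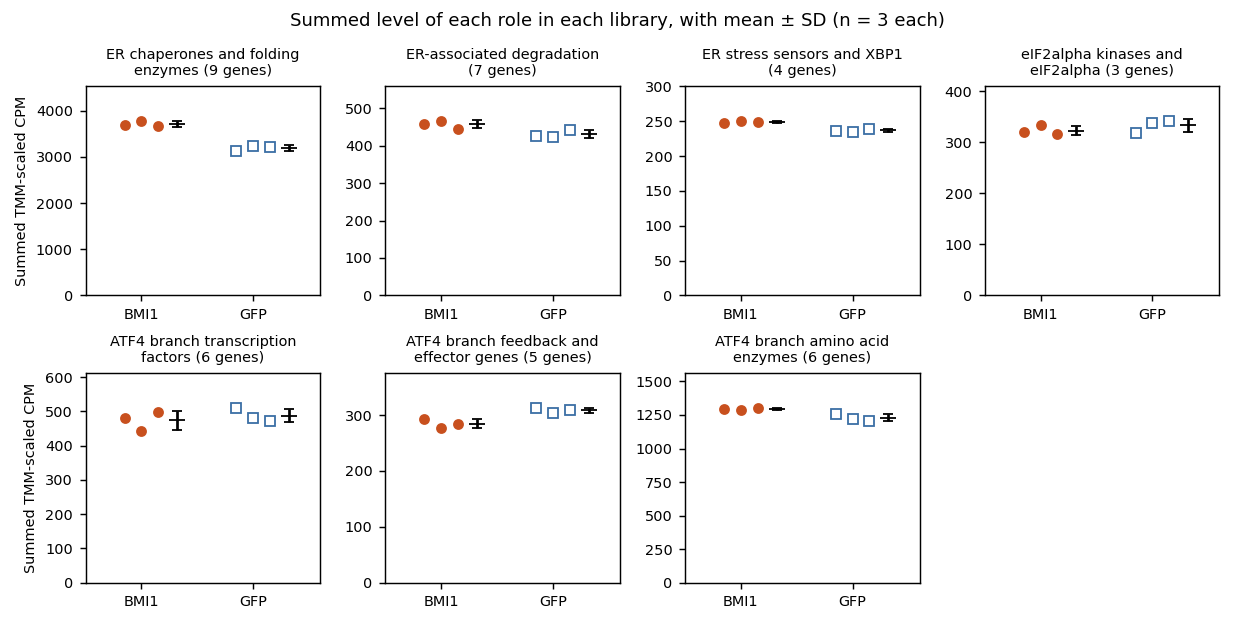
Summed TMM-scaled CPM of the genes of each role in each library, BMI1 left and GFP right, with mean ± SD (n = 3 each; axes start at 0). The 9 chaperones and folding enzymes sum to 3661 to 3785 CPM in BMI1 libraries, against 3123 to 3246 CPM in GFP libraries. Sums of the ER-associated degradation genes, the sensors with XBP1 and the amino acid enzymes also lie higher in BMI1 libraries without overlap. The feedback and effector genes sum lower without overlap, and the sums of the eIF2alpha genes and of the ATF4 branch transcription factors overlap. With EDEM1, XBP1, WARS or PPP1R15A left out, the sums of that gene's role overlap too.

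At the head of the ATF4 branch, 0 of 3 genes passed by edgeR, DESeq2 or limma-voom, and 1 (EIF2AK4) had an unadjusted p under 0.05. By edgeR 26.4% of all tested genes passed. EIF2AK3, the gene of PERK, had 23.2, 24.3 and 26.9 CPM in BMI1 libraries, against 21.4, 22.8 and 23.00 CPM in GFP libraries (log2 0.14; adjusted p = 0.143 by edgeR). EIF2AK4, the gene of GCN2, which senses uncharged tRNA, averaged 150.5 ± 5.83 CPM in BMI1 cells and 163 ± 2.93 CPM in GFP cells (SD, n = 3 each; log2 -0.12; adjusted p = 0.0893 by edgeR). Neither overlapped between groups. EIF2S1, which encodes eIF2alpha, had a log2 value of 0.0030 whose sign changed with the setting. By edgeR EIF2AK4 passed as a fall without GFP replicate 1 (adjusted p = 0.0413) and after GC correction (0.0166), and GC correction also called EIF2AK3 (0.0266) and EIF2S1 (0.0285) as rises.

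ATF4 mRNA itself did not pass, while 3 transcription factor genes that act with or below it fell. ATF4 stood at 321, 291 and 318 CPM in BMI1 libraries, against 326, 312 and 304 CPM in GFP libraries. The groups overlapped (log2 -0.017, SE 0.048; adjusted p = 0.83 by edgeR). DDIT3, which encodes CHOP, a pro-death factor of prolonged stress, had 29.6, 28.2 and 29.9 CPM in BMI1 libraries, against 44.1, 42.9 and 39.2 CPM in GFP libraries. The groups were apart, and DDIT3 fell by 0.52 on the log2 scale (SE 0.061; adjusted p = 3.73e-05 by edgeR). DDIT3 counts divided by ATF4 counts were 0.0924, 0.0967 and 0.0940 in BMI1 libraries, against 0.135, 0.137 and 0.129 in GFP libraries, a pair chosen after its values were seen. An exact two-sided permutation test gave p = 0.1, the smallest possible here.

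ATF3, a stress-induced member of the ATF/CREB family, had 13.3, 10.02 and 12.3 CPM in BMI1 libraries, against 18.4, 16.5 and 17.04 CPM in GFP libraries. It fell by 0.53 on the log2 scale (SE 0.097; adjusted p = 0.00126 by edgeR), without overlap. ATF5, a relative of ATF4 that is likewise controlled in translation, had 15.9, 15.6 and 16.2 CPM in BMI1 libraries, against 19.02, 19.1 and 20.02 CPM in GFP libraries. The groups did not overlap, and ATF5 fell by 0.29 (SE 0.063; adjusted p = 0.00463 by edgeR). Over the 14 other settings DDIT3 ran from -0.57 to -0.48, ATF3 from -0.62 to -0.43 and ATF5 from -0.39 to -0.26 on the log2 scale, each past the threshold in all 14.

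CEBPB, a C/EBP partner of ATF4, had 101, 97.2 and 119.8 CPM in BMI1 libraries, against 102, 88.8 and 90.6 CPM in GFP libraries. BMI1 replicate 3 stood highest, and GFP replicate 1 lay among the BMI1 libraries (log2 0.18; adjusted p = 0.128 by edgeR). Without GFP replicate 1 CEBPB passed as a rise (log2 0.25; adjusted p = 0.00833 by edgeR), and after GC correction its log2 fold change was 0.024. NUPR1, a small stress-induced chromatin protein, had 110 counts over the BMI1 libraries and 92 over the GFP libraries. At that depth it did not pass (log2 0.44, SE 0.22; adjusted p = 0.158 by edgeR).

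PPP1R15A, which encodes GADD34, the inducible subunit that guides a phosphatase to eIF2alpha, had 59.2, 52.03 and 55.9 CPM in BMI1 libraries, against 77.2, 70.9 and 68.05 CPM in GFP libraries. The groups were apart, and PPP1R15A fell by 0.37 on the log2 scale (SE 0.069; adjusted p = 0.00166 by edgeR). PPP1R15B, its constitutive counterpart, averaged 139 ± 6.12 CPM in BMI1 cells and 143 ± 6.61 CPM in GFP cells (SD, n = 3 each) and did not pass (log2 -0.044; adjusted p = 0.583 by edgeR). PPP1R15A counts divided by PPP1R15B counts were 0.408, 0.373 and 0.421 in BMI1 libraries, against 0.565, 0.493 and 0.454 in GFP libraries, without overlap, in a pair chosen after its values were seen.

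VLDLR, a lipoprotein receptor known as a PERK and ATF4 target, rose, with 10.6, 10.4 and 9.12 CPM in BMI1 libraries, against 6.13, 5.49 and 7.26 CPM in GFP libraries. The rise was 1.58-fold (log2 0.66, SE 0.12; adjusted p = 0.00103 by edgeR), without overlap. TRIB3, a pseudokinase that ATF4 and CHOP induce, had 65.8, 64.3 and 73.6 CPM in BMI1 libraries, against 81.2, 73.1 and 74.1 CPM in GFP libraries. Its groups overlapped and it did not pass (log2 -0.16; adjusted p = 0.103 by edgeR), but after GC correction it did (-0.26; adjusted p = 0.000209). CHAC1, which degrades glutathione, averaged 11.7 ± 0.913 CPM in BMI1 cells and 10.7 ± 0.671 CPM in GFP cells (SD, n = 3 each; log2 0.13; adjusted p = 0.29 by edgeR).

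Amino acid enzymes of the branch mostly did not pass: of 6 tested, 1 rose and 0 fell, with a median log2 fold change of 0.043. The share rising, 16.7%, was near the 17.1% of all tested genes, of which 9.32% fell. ASNS, which makes asparagine and carries the C/EBP-ATF element printed above, averaged 144 ± 3.697 CPM in BMI1 cells and 141 ± 7.23 CPM in GFP cells (SD, n = 3 each; log2 0.029, SE 0.051; adjusted p = 0.715 by edgeR). The serine synthesis genes PHGDH, PSAT1 and PSPH, in the order of the pathway, had log2 fold changes of 0.056, -0.0015 and -0.12. SHMT2, which turns serine into glycine in mitochondria, had 0.094. None of these 4 passed by edgeR (adjusted p = 0.507, 0.984, 0.14 and 0.169). PSPH passed as a fall after GC correction (adjusted p = 0.0447 by edgeR) and SHMT2 as a rise without GFP replicate 1 (0.0126).

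WARS, the tryptophanyl-tRNA synthetase gene and also a known interferon target, was the enzyme that rose. It had 370.1, 367 and 358 CPM in BMI1 libraries, against 336, 321 and 319 CPM in GFP libraries, without overlap (log2 0.17, SE 0.041; adjusted p = 0.00861 by edgeR). By edgeR the WARS call was lost without BMI1 replicate 1 (0.0589) or GFP replicate 2 (0.056), adjusted p in brackets.

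**Figure D4:**
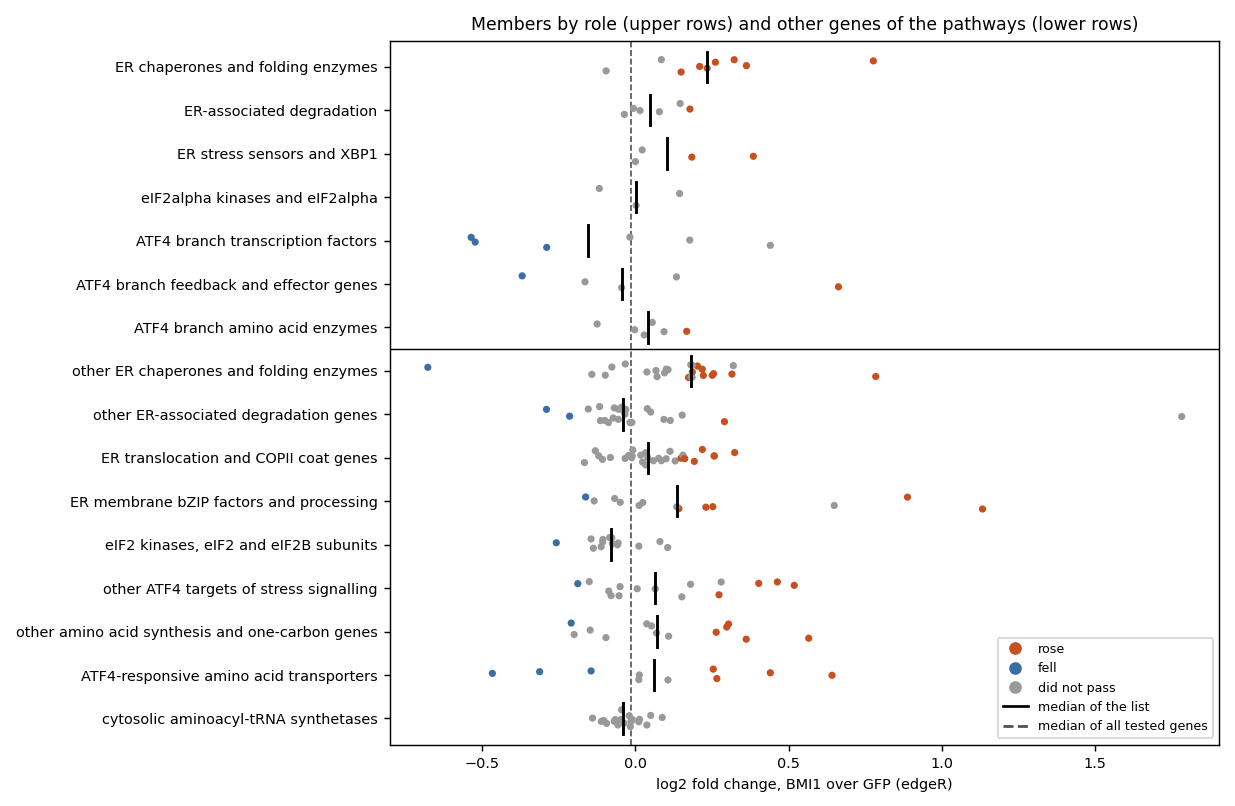
Log2 fold change of BMI1 over GFP for each tested gene (points), by role for the members (upper rows) and by list for other genes of the pathways (lower rows). Vertical bars are list medians and the dashed line is the median of all tested genes (-0.012); most ER chaperones lie right of it, the tRNA synthetases cluster near 0, and the grey point at 1.78 is RNF5, which did not pass.

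Other genes of the pathways, taken from lists, stood as follows, beside 17.1% rises and 9.32% falls over all tested genes by edgeR. The shares for each left-out library, given above, serve for these lists too. Of 25 other ER chaperones and folding enzymes, 9 rose and 1 fell, with a median log2 fold change of 0.18. P4HB, the disulphide isomerase PDI, averaged 661 ± 25.98 CPM in BMI1 cells and 532 ± 23.8 CPM in GFP cells (SD, n = 3 each) and PDIA3 587 ± 15.9 CPM in BMI1 cells and 492 ± 5.397 CPM in GFP cells (SD, n = 3 each). Both rose, by 0.32 and 0.26 on the log2 scale (adjusted p = 0.000222 and 0.000315 by edgeR), and PDIA5 rose by 0.78. The gene that fell was ERO1LB, one of the oxidases that recharge PDI, at 65.02 ± 1.89 CPM in BMI1 cells and 104 ± 9.89 CPM in GFP cells (SD, n = 3 each; log2 -0.68; adjusted p = 1.51e-05 by edgeR). Without GFP replicate 1 the list had 12 rises and 3 falls, and without BMI1 replicate 2 it had 2 falls.

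Of 29 genes of protein entry into the ER and COPII exit, 7 (24.1%) rose and 0 fell by edgeR. Over all tested genes 17.1% rose and 9.32% fell. The falls in the list were also 0 by DESeq2, 0 by limma-voom and 0 at an unadjusted p under 0.05. At that unadjusted p 2462 of all 15079 tested genes fell. The median log2 fold change of the 29 genes was 0.041. SRPR, of the signal recognition particle receptor, SSR4, of the translocon-associated complex, and SEC61A1, of the channel, rose by 0.26, 0.32 and 0.19 on the log2 scale. Rises numbered 4 without BMI1 replicate 1, BMI1 replicate 3 or GFP replicate 2, and 3 genes fell without GFP replicate 1. Of 24 other degradation genes, 1 rose (EDEM2, log2 0.29) and 2 fell (RNF139, -0.21, and NGLY1, -0.29). By edgeR the NGLY1 call was lost without BMI1 replicate 3 (0.0537), and the RNF139 call without BMI1 replicate 1 (0.111), BMI1 replicate 2 (0.0531), BMI1 replicate 3 (0.0944), GFP replicate 2 (0.104) or GFP replicate 3 (0.118), adjusted p in brackets. Without GFP replicate 1 that list had 2 rises and 4 falls, and without GFP replicate 3 it had 2 rises.

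A list of 13 genes held ER membrane factors, genes of their processing and related genes such as WFS1 and NFYA. Of these 5 rose and 1 (NFYA) fell, beside 17.1% and 9.32% of all tested genes. WFS1, which encodes wolframin of the ER membrane, averaged 27.01 ± 0.805 CPM in BMI1 cells and 14.6 ± 0.555 CPM in GFP cells (SD, n = 3 each; log2 0.89; adjusted p = 4.77e-07 by edgeR). CREB3L2, a bZIP factor cut like ATF6, rose by 0.23. CREB3L1, its relative, had a log2 fold change of 1.13 at under 1 CPM on average, and its call was lost with DESeq2 (adjusted p = 0.0785) and, by edgeR, without BMI1 replicate 1 (0.0505), BMI1 replicate 2 (0.0865), BMI1 replicate 3 (0.104), GFP replicate 2 (0.0886) or GFP replicate 3 (0.132). NFYA, a subunit of the CCAAT-binding factor, had -0.16 (adjusted p = 0.0464 by edgeR), a call lost without BMI1 replicate 1 (0.154), BMI1 replicate 2 (0.0653), BMI1 replicate 3 (0.124), GFP replicate 2 (0.166) or GFP replicate 3 (0.104). It was also lost with DESeq2 (0.050), with upper-quartile scaling (0.0567), with no low-count filter (0.0587), with a minimum of 1 CPM (0.0583) or with the replicate block (0.0678). Rises numbered 2 without BMI1 replicate 1, 2 or 3 or GFP replicate 3, and 3 without GFP replicate 2 or with DESeq2. Falls numbered 2 without GFP replicate 1.

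On the ATF4 side, 10 of 11 amino acid transporters were tested, 4 rose and 3 fell, beside 17.1% and 9.32% of all tested genes. SLC7A11, the cystine importer, averaged 87.8 ± 5.05 CPM in BMI1 cells and 121 ± 10.4 CPM in GFP cells (SD, n = 3 each), and SLC7A1, an arginine importer, 202 ± 3.39 CPM in BMI1 cells and 251 ± 6.42 CPM in GFP cells (SD, n = 3 each). They fell by 0.47 and 0.31 on the log2 scale (adjusted p = 0.00028 and 0.000124 by edgeR). SLC6A9, SLC1A4 and SLC7A5, carriers of glycine, neutral and large neutral amino acids, rose by 0.64, 0.44 and 0.27. SLC3A2, the partner chain of SLC7A11 and SLC7A5, had -0.14 (adjusted p = 0.0479 by edgeR), a call lost without BMI1 replicate 1 (0.18), BMI1 replicate 2 (0.149), BMI1 replicate 3 (0.0557), GFP replicate 1 (0.0783) or GFP replicate 2 (0.145). It was also lost with upper-quartile scaling (0.0698), with limma-voom (0.0545), with a minimum of 1 CPM (0.0567) or with the replicate block (0.0664).

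Of 13 other genes of amino acid synthesis and one-carbon metabolism, 5 rose and 1 fell, beside 17.1% and 9.32% of all tested genes. PYCR1, which makes proline, averaged 82.04 ± 4.32 CPM in BMI1 cells and 55.5 ± 4.41 CPM in GFP cells (SD, n = 3 each; log2 0.57; adjusted p = 6.19e-05 by edgeR). PCK2 and CBS rose by 0.36 and 0.30. CTH, the enzyme after CBS, had -0.21, a call lost by edgeR without BMI1 replicate 1 (0.0932), BMI1 replicate 2 (0.0602), BMI1 replicate 3 (0.136), GFP replicate 2 (0.159) or GFP replicate 3 (0.0981), and also with DESeq2 (0.119), with a minimum of 1 CPM (0.0514) or with the replicate block (0.0648). The falls numbered 2 without GFP replicate 1. Of 15 tested stress targets out of 16, 4 rose (26.7%) and 1 fell (6.67%), beside the same shares of all tested genes. CEBPG, a C/EBP partner of ATF4, TXNIP and FAM129A rose by 0.40, 0.46 and 0.27. DDIT4, an inhibitor of mTORC1, had -0.19, a call lost by edgeR without BMI1 replicate 2 (0.0666), BMI1 replicate 3 (0.0542) or GFP replicate 2 (0.0597); without GFP replicate 1 there were 2 falls.

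Of 20 further cytosolic tRNA synthetase genes, 0 rose and 0 fell by edgeR, against 0 and 2 at an unadjusted p under 0.05, 0 and 1 by DESeq2 and 0 and 0 by limma-voom. Over all 15079 tested genes 17.1% rose and 9.32% fell by edgeR. At an unadjusted p under 0.05, 3249 of them rose and 2462 fell. The log2 fold changes of the 20 synthetase genes ran from -0.14 to 0.088, with 15 below 0, next to 0.17 for WARS. After GC correction 1 of the 20 rose and 6 fell by edgeR, beside 20.8% and 16.5% of all tested genes. Without GFP replicate 1, 1 rose and 2 fell, and without BMI1 replicate 2, 1 fell. Of 14 further eIF2 kinases and subunits of eIF2 and eIF2B, 0 rose by edgeR, DESeq2, limma-voom or an unadjusted p under 0.05. By edgeR 1 fell (EIF2B2, log2 -0.26, adjusted p = 0.00667), and 4 fell at an unadjusted p under 0.05. The log2 fold change was below 0 for 11 of the 14, beside 7946 of all 15079 tested genes. Without GFP replicate 1, 4 fell.

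Markers of other cell types were set beside these results. Of 10 fibroblast markers 8 were tested and 6 rose, against 17.1% of all genes. Their log2 fold changes ran between 0.22 and 1.45 with a median of 0.95, and 8 were above 0, beside 7133 of all 15079 tested genes. Their summed level was 283 to 305 CPM in BMI1 libraries, against 199 to 209 CPM in GFP libraries. PRRX1 made up most of that sum, and COL3A1 and THY1 were near 0, with 6 and 5 counts over the BMI1 libraries and 8 and 1 over the GFP libraries. Their part in the rise of the ER folding genes was not tested. Of 6 keratinocyte markers 2 were tested, and the sum was 67.4 to 69.7 CPM in BMI1 libraries, against 56.5 to 69.2 CPM in GFP libraries. KRT14 rose by 0.55, a call lost without BMI1 replicate 1 or 2 or GFP replicate 3. Of 6 leukocyte markers 2 were tested, with a sum of 46.3 to 50.5 CPM in BMI1 libraries, against 42.96 to 49.2 CPM in GFP libraries. CD68 rose by 0.25 and LYZ fell by 0.68. The CD68 call was lost with DESeq2 size factors and without BMI1 replicate 1 or 3 or GFP replicate 2 or 3. Of 6 endothelial markers 3 were tested, with a sum of 7.34 to 8.22 CPM in BMI1 libraries, against 9.201 to 9.78 CPM in GFP libraries. VWF rose by 0.85 and KDR fell by 0.83. PTPRC, CD3E, CDH5, KRT5 and KRT1 had under 10 counts over all libraries together. Of 8 melanoma lineage markers 5 were tested, with log2 fold changes between -0.17 and 0.19. S100A1, a calcium-binding protein, was the 1 that rose (log2 0.19; adjusted p = 0.0237 by edgeR), and no lineage marker rose without BMI1 replicate 1 or 3 or GFP replicate 2 or 3. After GC correction 1 rose and 2 fell.

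GC content was taken into account in a separate fit. Median transcript GC content was 47.9% for the ER folding genes, 50.1% for the ATF4 branch genes and 48.4% for tested genes with a value. After the correction 20.8% of tested genes rose and 16.5% fell, and rises made up 55.8% of calls, against 64.8% without it. The ER folding branch then had 13 rises and 1 fall, and the ATF4 branch 4 rises and 8 falls. HSPA5, HERPUD1 and DERL1 joined the rises and CRELD1 was the fall. In the ATF4 branch EIF2AK3 and EIF2S1 joined the rises, and ATF4 (log2 -0.081; adjusted p = 0.0273 by edgeR), TRIB3, EIF2AK4 and PSPH joined the falls.

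**Figure D5:**
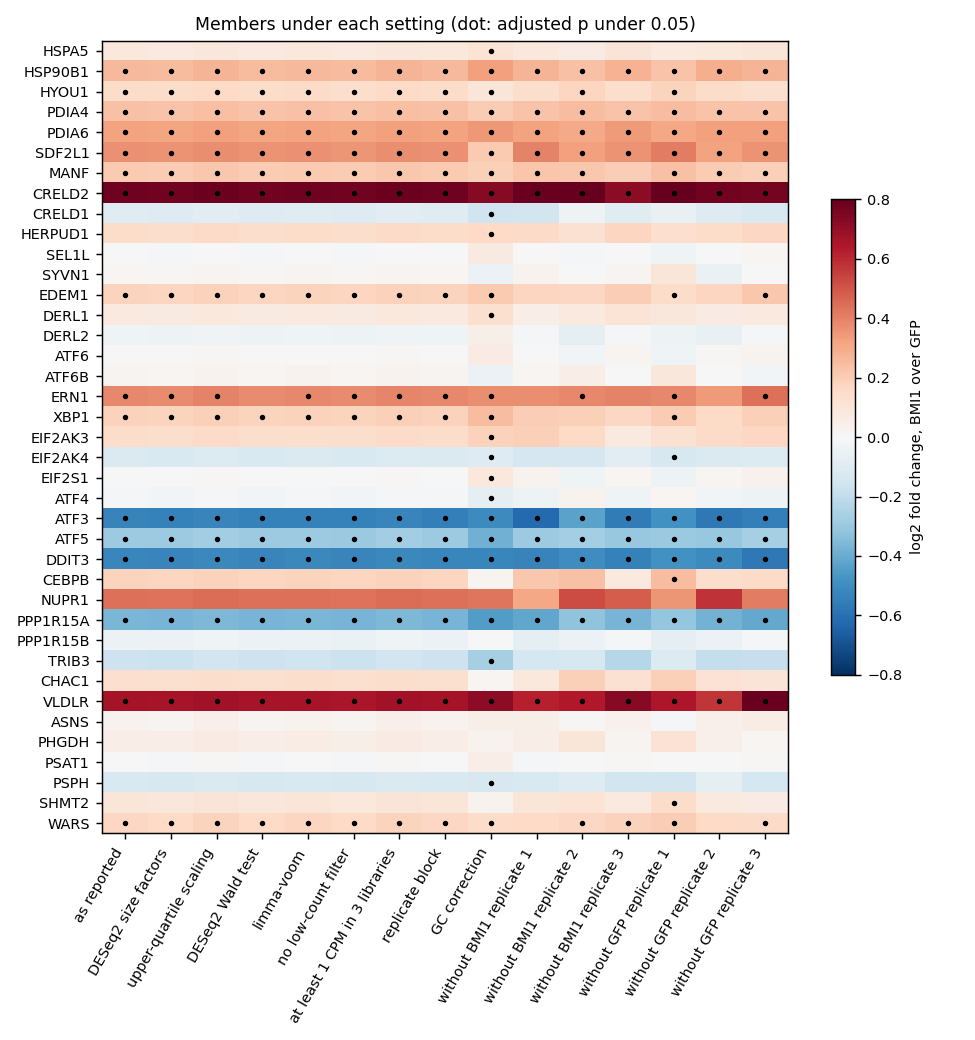
Log2 fold change of BMI1 over GFP (colour, red above 0 and blue below) for the tested genes (rows) as reported and under 14 other settings (columns); dots mark an adjusted p under 0.05. Dots run through all columns for HSP90B1, PDIA4, PDIA6, SDF2L1, CRELD2, VLDLR, ATF3, ATF5, DDIT3 and PPP1R15A, and the GC correction column holds the most dots.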

How the data were processed

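RNA of 3 BMI1 and 3 GFP libraries of A375 cells was sequenced, and groups came from the titles. The deposited table gives each gene's estimated count per library, which the authors left unnormalized; RSEM 1.2.12, Bowtie 1.0.1 and hg19 are named per the submitters' processing notes. Whether strand was used is not stated there.

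Counts were rounded, filtered with filterByExpr and TMM-scaled. The test was edgeR's quasi-likelihood F-test (edgeR 4.0.16, R 4.3.3), Benjamini-Hochberg adjusted over 15079 genes, with a threshold of 0.05; it was tested on simulated data. Fold changes are BMI1 over GFP, and each SE is the absolute log2 value over the root of F. Members, lists and motifs were chosen with earlier results of these data known. Named are all 40 members and, per list, up to 3 genes in each direction by smallest adjusted p. Alternatives were DESeq2 (1.42.0) size factors and Wald test, upper-quartile scaling, limma-voom (3.58.1), no filter, at least 1 CPM in 3 libraries, a replicate block, a lowess correction for GC content (GENCODE transcripts, 94.6% of tested genes) and leaving out each library.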

Additional observations from a re-analysis of the deposited data

How the results depend on the processing

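Over the 14 alternatives, 4 of 4 falls, 6 of 12 rises and 11 of 23 genes that did not pass kept their call in all. Deviations of same-numbered libraries from their group means correlated at 0.068, 0.094 and -0.065, and those of other pairs at -0.18 to 0.14. With 3 libraries per group these values cannot settle whether the numbers pair the libraries. With the replicate block 2580 genes rose and 1408 fell, next to 2581 and 1405 without it. After GC correction 2488 genes fell; falls and rises were 1 fall in the ER folding branch, 4 rises and 8 falls in the ATF4 branch, 17 rises among other chaperones, 5 rises and 5 falls among other degradation genes, 16 rises among translocation genes, 1 rise and 4 falls among eIF2 genes, 5 falls among stress targets, 4 falls among amino acid genes, and 1 rise and 6 falls among tRNA synthetases. The list of ER membrane factors, which also holds NFYA, had 3 rises with the DESeq2 Wald test. It had 0 falls with that test, upper-quartile scaling, no filter, the 1 CPM filter or the replicate block. Stress targets had 2 falls with DESeq2 size factors, amino acid genes 0 with the 1 CPM filter, and tRNA synthetases 1 with the Wald test or no filter. Leaving out a library gave 711 to 2451 falls over all genes, 5 to 10 rises in the ER folding branch, 1 to 4 rises in the ATF4 branch, 1 to 3 falls among other chaperones, 1 to 2 rises and 0 to 4 falls among other degradation genes, 4 to 8 rises and 0 to 3 falls among translocation genes, 2 to 5 rises and 0 to 2 falls among membrane factors, 1 to 4 falls among eIF2 genes, 0 to 2 among stress targets, 0 to 2 among amino acid genes, and 0 to 1 rises and 0 to 2 falls among tRNA synthetases. Genes that changed sign were uncalled as reported and near 0 on the log2 scale. SEL1L gave 0.0030 with upper-quartile scaling, 0.0028 with the 1 CPM filter, 0.0745 with GC correction, -0.0346 to 0.0187 on leaving out a library. SYVN1 gave -0.0442 with GC correction, -0.0506 to 0.0975 on leaving out a library. DERL2 gave 0.0448 with GC correction. ATF6 gave -0.0046 with DESeq2 size factors, -0.0051 with DESeq2 Wald test, -0.0003 with limma-voom, -0.0062 with no filter, -0.0349 to 0.0293 on leaving out a library. ATF6B gave -0.0481 with GC correction, -0.0234 to 0.0909 on leaving out a library. EIF2S1 gave -0.0024 with DESeq2 size factors, -0.0027 with DESeq2 Wald test, -0.0041 with no filter, -0.0389 to 0.0353 on leaving out a library. ATF4 gave -0.0423 to 0.0263 on leaving out a library. PPP1R15B gave 0.0023 with GC correction. ASNS gave -0.0063 to 0.0579 on leaving out a library. PSAT1 gave 0.0068 with upper-quartile scaling, 0.0068 with the 1 CPM filter, 0.0537 with GC correction, -0.0092 to 0.0119 on leaving out a library. The cause of these shifts was not tested.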

Other observations

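Genes outside the members also held ERSE or ERSE-II in the 250 bases before their start. Of 22 such genes that were tested, 6 rose, 1 fell and 15 did not pass, with a median log2 fold change of 0.060. Among all genes 17.1% rose and 9.32% fell. With GFP replicate 1 left out 8 of the element genes rose, ALG12 and SETD3 added, and 3 fell, EIF2A and PLS3 added. After GC correction 10 rose and 4 fell. The 6 that rose include FICD and CAMTA1, whose calls were lost with DESeq2 (adjusted p = 0.148 and 0.053). By edgeR the CAMTA1 call was lost without BMI1 replicate 1 (0.094) or GFP replicate 3 (0.062). The FICD call was lost when any 1 of the 5 libraries other than GFP replicate 1 was left out (lowest 0.0902, highest 0.191). It was also lost by edgeR with DESeq2 size factors (0.0515), no low-count filter (0.0598) or the replicate block (0.0674). Of the 8 members with an element 6 rose and 0 fell by edgeR, with a median of 0.22, and 4 rose without BMI1 replicate 1 or 3 or GFP replicate 2 or 3. Of 10 tested ER folding members with a promoter but no element 4 rose, with a median of 0.019. Without BMI1 replicate 3 PDIA4 was the 1 that rose, and 2 rose without BMI1 replicate 1 or GFP replicate 2. The difference between members with and without an element was not tested. Those with an element are mostly chaperones and folding enzymes, and those without are mostly degradation genes and sensors. No element means no exact match of the letters within the 250 bases. The genes named here were chosen after their values were seen. NAV2, a gene of neuron navigation, averaged 12.5 ± 1.17 CPM in BMI1 cells and 3.54 ± 0.346 CPM in GFP cells (SD, n = 3 each; log2 1.82, adjusted p = 1.6e-07 by edgeR). SYNPO, an actin-associated protein, averaged 81.2 ± 3.91 CPM in BMI1 cells and 59.8 ± 2.202 CPM in GFP cells (SD, n = 3 each; log2 0.44, adjusted p = 0.000138 by edgeR). CALR, the lectin chaperone calreticulin, averaged 881 ± 12.3 CPM in BMI1 cells and 766 ± 21.7 CPM in GFP cells (SD, n = 3 each; log2 0.20, adjusted p = 0.0015 by edgeR). NUCB1, a calcium-binding protein of the Golgi, averaged 262 ± 11.7 CPM in BMI1 cells and 217 ± 16.04 CPM in GFP cells (SD, n = 3 each; log2 0.27, adjusted p = 0.00345 by edgeR). The gene that fell was ERO1LB, given above.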
